A study of Mus musculus with 2 samples.

Results

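The coagulation and fibrinolysis genes are 34 mouse genes that were chosen by name: the clotting factors, the fibrinogen chains, the inhibitors of clotting, the plasminogen system and the enzymes of the vitamin K cycle. Of these, 33 were matched by gene identifier among the 43346 mouse gene entries of the deposited tables. The exception was Klkb1, the gene of plasma prekallikrein. Its present gene identifier was not found among the table entries, and its transcript stood there under the identifier now named Cyp4v3 with another length, so no value is given for it.

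The series holds total RNA sequencing of liver from mouse embryos at embryonic day 12.5. There is 1 group of 2 libraries, with no treatment and no other genotype. The livers of 120 embryos were pooled for replicate 1 and those of 88 others for replicate 2, all of the B6NCrl strain with the sexes mixed, so neither value shows the spread between single embryos. The libraries held 37.6 M and 34.7 M expected counts (estimated reads per gene), of which added control RNAs took 2.94% and 3.19%.

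Blood clotting is a chain of serine proteases, most of them made by liver cells and secreted as inactive precursors. Tissue factor with factor VII starts the chain, factor X with its cofactor factor V turns prothrombin into thrombin, and thrombin cuts fibrinogen into fibrin, which factor XIII crosslinks. Plasma inhibitors restrain these steps, and plasmin, made from plasminogen, dissolves the fibrin. The fetal liver at this stage is also the main site of blood formation, and hepatoblasts, the precursors of hepatocytes and bile duct cells, share it with erythroid, megakaryocytic, endothelial and mesenchymal cells. Of 12 hepatoblast markers, 11 were at 1 TPM or more in both libraries (TPM is an abundance scaled by transcript length and depth), with summed levels of 13042 and 12697 TPM. All 6 erythroid markers passed the same level. In such bulk RNA, fewer cells of a type and less RNA per cell cannot be told apart.

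Most of the pathway was expressed at this stage. Of the 33 matched genes, 27 were at 1 TPM or more in both libraries (81.8%), beside 54.5% of the 21474 protein-coding genes in the tables. At 100 TPM or more in both stood 8 of them (24.2%), beside 5.39% of protein-coding genes. A further 10 lay from 10 to under 100 TPM, 9 from 1 to under 10 TPM, and 6 were under 1 TPM in at least 1 library. The median of the mean levels was 16.2 TPM, against 2.02 TPM over all protein-coding genes. The summed level of the 33 genes was 1812 TPM in the first library and 1748 TPM in the other. The sum was uneven, since the leading 5 genes held 54.6% and 53.9% of it and the leading 10 held 83.1% and 83.0%.

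**Figure D1:**
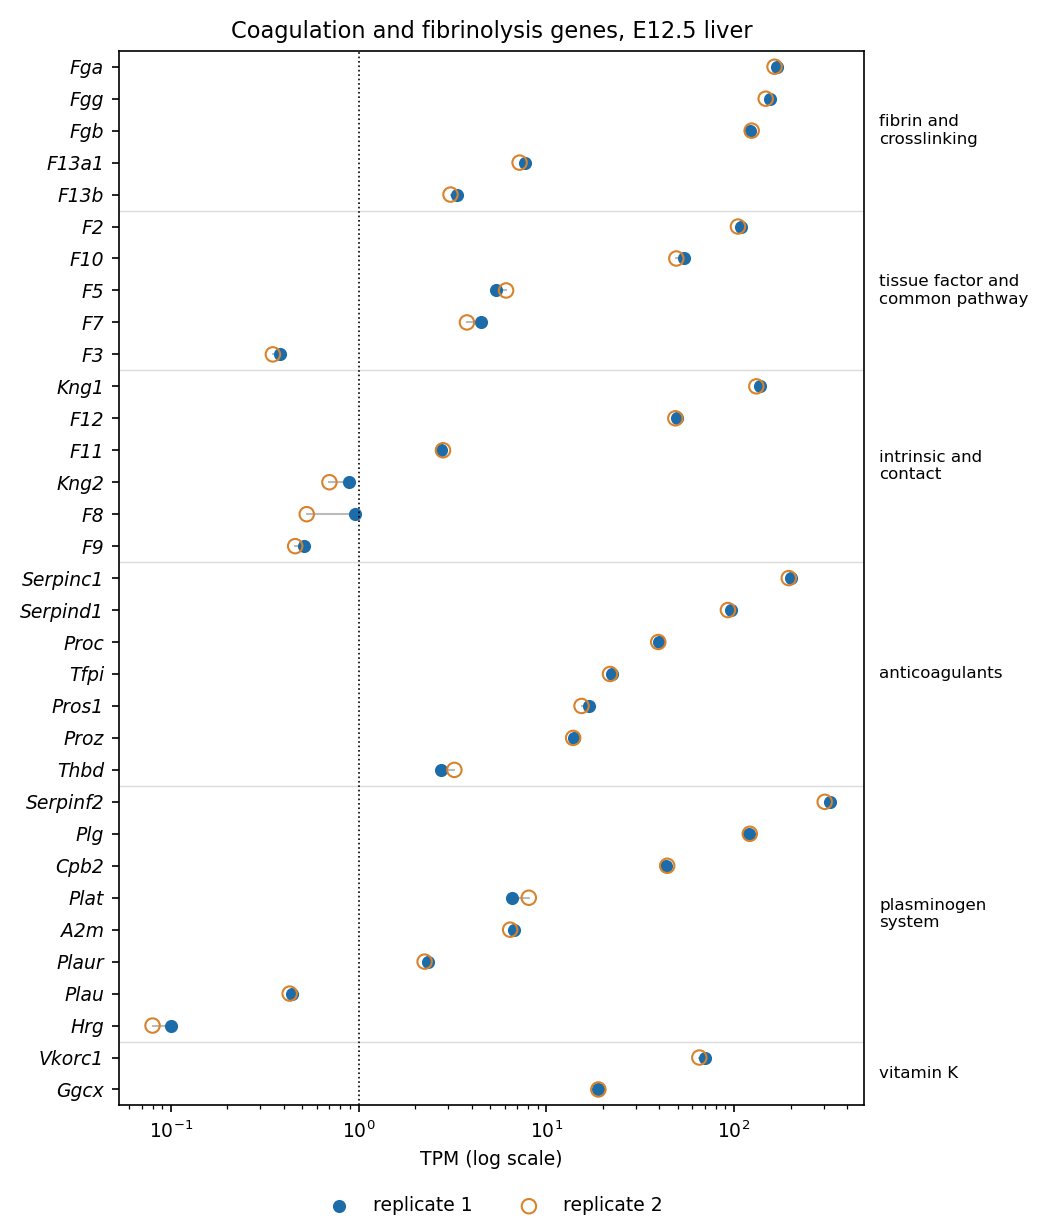
TPM of each matched gene in both libraries on a log axis, grouped by role; filled points are replicate 1, open points replicate 2, and the dotted line marks 1 TPM. Serpinf2 stands highest at 325.70 and 304.02 TPM and Hrg lowest at 0.10 and 0.08 TPM, and 3 of the 6 roles reach below 1 TPM.

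The 3 fibrinogen chains, which assemble into the clot's building block, were all among the 6 highest genes. Fga (alpha chain) stood at 168.66 TPM and 164.33 TPM (replicate 1 first, here and below). Fgg (gamma chain) stood at 155.75 and 147.41 TPM. Fgb (beta chain) stood at 121.04 and 124.14 TPM. In each library the order by TPM was Fga, Fgg, Fgb, and the values of neighbours in that order did not overlap. The ratio of Fga to Fgg was 1.099 ± 0.0226 and that of Fgb to Fgg was 0.810 ± 0.0460 (mean ± SD of the TPM ratio, n = 2). The order rests on the transcript length that each read count is divided by. Fgb had the most reads of the chains (14138 and 13423, against 11495 and 10374 for Fga), and its 1 transcript model is 3810 bases long with 1443 coding bases. Coding RPKM divides all reads of a gene, untranslated parts included, by the coding length of its longest coding model and by the library's mouse-gene reads. On that scale Fgb was the highest chain at 273 ± 5.61 coding RPKM (mean ± SD, n = 2), Fgg followed at 158 ± 5.68 and Fga was lowest at 132 ± 2.01. By coding RPKM the ratio of Fgb to Fgg was 1.72 and that of Fga to Fgg was 0.832, so the order of the chains was reversed between the scales. With reads divided by each gene's longest model instead, the ratio of Fgb to Fgg was 0.855 and that of Fga to Fgg was 0.997.

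The 3 chain genes lie together on chromosome 3 (mm10), over 42.1 kb in which no other gene lies whole. The lincRNA gene Gm30097, on the opposite strand, reaches in from outside and overlaps an exon of Fgg, and it was given 1.02 reads in each library. Fgg (chr3:83007724-83015049) and Fga (chr3:83026076-83033627) are on the plus strand, and Fgb (chr3:83040141-83049863) is on the minus strand. The bases before each start site are shown because the 3 neighbours lay between 121.04 and 168.66 TPM, and those of F9 because it was far lower and yet shares a kind of motif with Fga and Fgb. Windows are the 250 bases before the RefSeq start on GRCm38.p6, 5′ to 3′ on the gene's strand. For Fga the RefSeq start lies inside the gene as GENCODE has it, so the last 77 bases of its window are in that gene and are left out here. Capitals mark matches on either strand to 3 short motifs: GTTAAT, part of the site of the hepatocyte factor HNF1; TTGCNNAA, a C/EBP-type site; and CAAAGT, part of an HNF4-type site.
Fgg (chr3:83007474-83007723, plus strand): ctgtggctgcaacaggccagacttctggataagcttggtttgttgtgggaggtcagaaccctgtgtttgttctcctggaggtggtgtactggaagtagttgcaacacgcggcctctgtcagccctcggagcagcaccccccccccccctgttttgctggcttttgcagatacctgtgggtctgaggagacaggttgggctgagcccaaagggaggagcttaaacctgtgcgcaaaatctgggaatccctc
Fga (chr3:83025903-83026075, plus strand): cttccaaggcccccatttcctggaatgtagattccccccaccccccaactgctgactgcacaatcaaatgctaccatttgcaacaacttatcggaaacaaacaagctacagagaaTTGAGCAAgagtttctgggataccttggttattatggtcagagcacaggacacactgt
Fgb (chr3:83049864-83050113, minus strand): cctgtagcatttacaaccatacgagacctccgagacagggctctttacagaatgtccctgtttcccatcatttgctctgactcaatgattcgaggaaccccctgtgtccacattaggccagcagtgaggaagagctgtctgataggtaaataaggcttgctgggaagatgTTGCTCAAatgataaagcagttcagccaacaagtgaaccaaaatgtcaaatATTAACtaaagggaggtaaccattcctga
F9 (chrX:59999214-59999463, plus strand): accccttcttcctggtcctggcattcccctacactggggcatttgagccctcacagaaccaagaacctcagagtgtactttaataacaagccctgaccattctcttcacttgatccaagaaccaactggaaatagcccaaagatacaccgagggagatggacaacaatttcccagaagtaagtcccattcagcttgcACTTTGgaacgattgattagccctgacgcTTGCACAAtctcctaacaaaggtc
Fga and Fgb each held a GTTAAT match, as its reverse complement ATTAAC, at 43 and 29 bases before the RefSeq start, and a TTGCNNAA match at 135 and 80 bases before it. The GTTAAT match of Fga is in the part left out, past the GENCODE start. The Fgg window held none of the 3 motifs. The F9 window held a TTGCNNAA match at 24 and a CAAAGT match at 53 bases before the start. Promoter windows were found for 27 of the 34 genes. Of these, 15 were of genes at 10 TPM or more, 11 of lower genes, and 1 of Klkb1, which has no level. GTTAAT was in 4 of them (F13b, Fga, Fgb and Proz) and in 6.43% of all 32851 windows, with 3 of the 15 higher genes and 1 of the 11 lower ones. TTGCNNAA was in 9 (9.56% of all windows), 3 of the 15 higher genes, 5 of the 11 lower ones and Klkb1. CAAAGT was in 8 (12.6% of all windows), 4 of those 15 genes and 4 of those 11. A match is a run of letters only, and high and low genes of the pathway both carried them.

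RNAs of factor XIII, the transglutaminase that crosslinks fibrin, were far below those of the fibrinogen chains by TPM. Protein was not measured. F13a1, its catalytic subunit, stood at 7.73 and 7.21 TPM. F13b, the carrier subunit, stood at 3.33 and 3.09 TPM. The ratio of F13a1 to F13b was 2.33 ± 0.00849. F13a1 is also made by megakaryocytes and macrophages. All 10 markers of megakaryocytes and platelets were at 1 TPM or more in both libraries (summed levels of 1072 and 952 TPM) and 9 of 10 macrophage markers were (156 and 154 TPM). Their part in the F13a1 level was not tested.

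The genes of thrombin generation differed widely in level. F2 (prothrombin) stood at 108.91 and 104.90 TPM. F10 (factor X) stood at 54.28 and 49.28 TPM. F5, the cofactor of factor X, stood at 5.39 and 6.11 TPM, and F7 (factor VII) at 4.51 and 3.78 TPM. F3 (tissue factor, the membrane receptor of factor VII) was at 0.38 and 0.35 TPM, from 21 and 18 reads. F2 was 2.07 ± 0.0864 times F10, and F10 was 12.5 ± 0.708 times F7 by TPM (mean ± SD, n = 2). The gene order on chromosome 8 puts F7 next to F10: F7 (chr8:13026034-13035809), F10 (chr8:13037308-13056676) and Proz (chr8:13060914-13076026) follow each other on the plus strand within 50.0 kb, with gaps of 1.498 and 4.237 kb. All 3 encode vitamin K-dependent plasma proteins. Proz (protein Z, a cofactor of an inhibitor of factor X) lay between the other two at 14.00 and 13.90 TPM, 3.39 ± 0.405 times F7. Unlike the fibrinogen genes, these neighbours spanned more than 10-fold in each library.

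**Figure D2:**
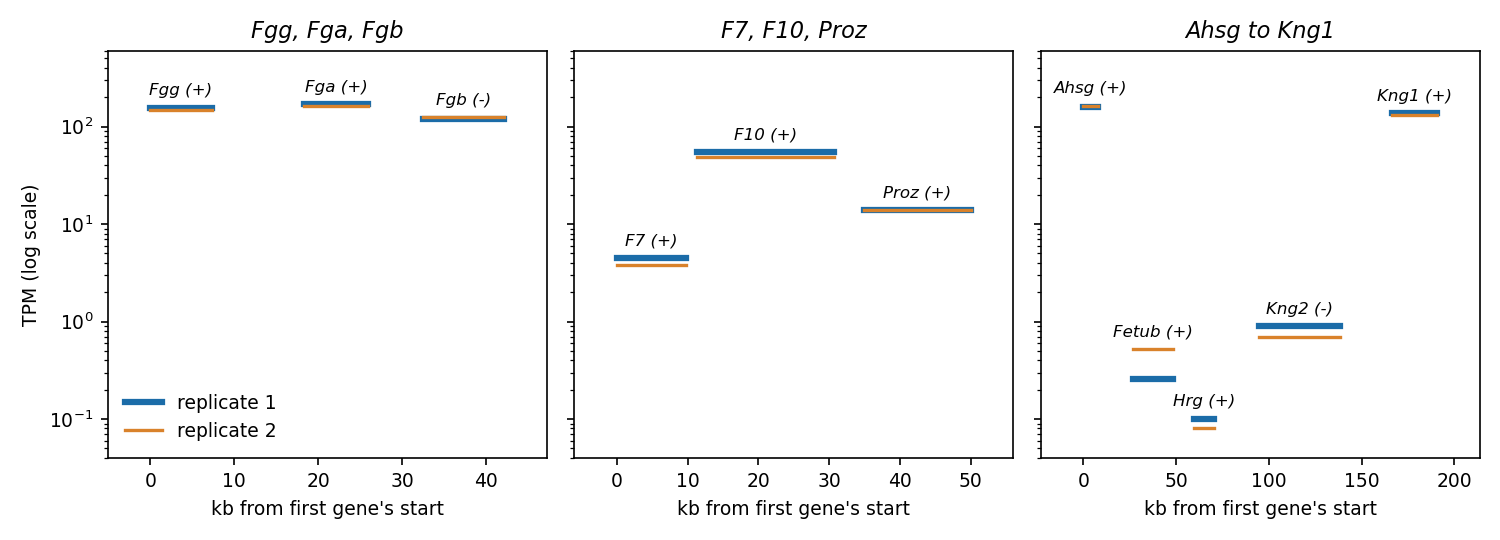
TPM on a log axis against distance in kb from the first gene's start, for 3 groups of neighbouring genes; each bar spans a gene, thick for replicate 1 and thin for replicate 2, with its strand in brackets. The fibrinogen genes lie between 121.04 and 168.66 TPM, F7 to Proz between 3.78 and 54.28 TPM, and Kng1 is far above its neighbours Kng2 and Hrg.

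In the intrinsic and contact pathway, 3 of the 6 matched genes were at 1 TPM or more in both libraries. Kng1 (kininogen, the carrier of prekallikrein and source of bradykinin) stood at 137.03 and 131.42 TPM. F12 (factor XII, which starts the contact pathway) stood at 49.79 and 48.69 TPM. F11, the next protease, stood at 2.74 and 2.82 TPM. The factors that are missing in hemophilia were under 1 TPM: F8 at 0.96 and 0.53 TPM from 90 and 56 reads, and F9 at 0.51 and 0.46 TPM from 42 and 35 reads. F12 was 17.7 ± 0.640 times F11, and F10 was 107 ± 0.494 times F9 by TPM. That SD leaves out the counting error of F9, whose deposited interval in replicate 1 ran from 0.362 to 0.663 TPM. The fold also depends on length: F10 stood at 49.0 ± 2.57 coding RPKM and F9 at 0.776 ± 0.0555. F8 is known to be made mainly by endothelial cells. The 10 endothelial markers were all at 1 TPM or more in both libraries, with sums of 269 and 246 TPM, and their part in the F8 level was not tested. The F8 value also rests on short models: F8-203, of 676 bases, held 50.5% and 60.4% of its TPM from 8.88 and 5.39 estimated reads. Per coding length F8 was 0.297 ± 0.0816 coding RPKM, below F9 at 0.776 ± 0.0555, whereas by TPM it stood above F9 in both libraries.

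The 2 kininogen genes stood far apart. Kng2 stood at 0.89 and 0.70 TPM, from 42.0 and 30.0 estimated reads, and Kng1 was 171 ± 23.9 times Kng2. The copies share 160 words of 100 bases, which make up 4.93% of those in Kng1 and 5.29% of those in Kng2, and how reads from those words were split between them is not known. Hrg (histidine-rich glycoprotein, which binds plasminogen) was at 0.10 and 0.08 TPM from 5 and 4 reads. Hrg, Kng2 and Kng1 lie in that order on chromosome 16 after Ahsg and Fetub, genes of the related fetuins, all within 190.8 kb. Ahsg, at 162 ± 3.19 TPM, and Kng1, at 134 ± 3.97 TPM (mean ± SD, n = 2), are at the 2 ends of this stretch, and Fetub between them was at 0.390 ± 0.184 TPM. Of the 9 annotated genes in the stretch, these 5 are named here: the outer ones were high, and Fetub, Hrg and Kng2 were under 1 TPM in both libraries.

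All 7 anticoagulants were at 1 TPM or more in both libraries. Serpinc1 (antithrombin, the main inhibitor of thrombin and factor X) stood at 201.95 and 195.65 TPM. Serpind1 (heparin cofactor II, a thrombin inhibitor) stood at 96.65 and 92.76 TPM, with a mean of 41.5 TPM over models annotated as protein-coding in GENCODE M21, where its leading model is not found. Proc (protein C, which destroys activated factors V and VIII) stood at 39.87 and 39.47 TPM, and its cofactor Pros1 (protein S) at 16.99 and 15.41 TPM. Tfpi, the inhibitor of tissue factor with factor VII, stood at 22.43 and 21.85 TPM. Thbd (thrombomodulin, the endothelial receptor through which thrombin activates protein C) stood at 2.75 and 3.24 TPM. Tfpi was thus above both F7 and F3 in each library. Serpinc1 was 1.86 ± 0.00766 times F2 by TPM, and that value depends on the transcript models. Over protein-coding models alone the means were 104 TPM for Serpinc1 and 106 TPM for F2, which puts Serpinc1 below F2. Per coding length Serpinc1 stood at 112 ± 1.55 and F2 at 94.8 ± 2.27 coding RPKM, and Serpinc1 moved from the second to the seventh place among the 33 genes.

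The plasminogen system held the highest gene of all. Serpinf2 (alpha-2-antiplasmin, the main plasmin inhibitor) stood at 325.70 and 304.02 TPM and was also highest per coding length, at 366 ± 18.7 coding RPKM. Plg (plasminogen) stood at 120.39 and 121.26 TPM, so that the inhibitor's TPM was 2.61 ± 0.140 times that of its target. Cpb2 (a carboxypeptidase that slows fibrin breakdown) stood at 43.63 and 44.06 TPM. The activators were low. Plat (tissue plasminogen activator) stood at 6.56 and 8.07 TPM. Plau (urokinase) stood at 0.44 and 0.43 TPM from 31 and 28 reads, and its receptor Plaur at 2.35 and 2.25 TPM. Plg was 16.7 ± 2.35 times Plat, and Plat 16.8 ± 2.73 times Plau. A2m, a broad protease inhibitor, stood at 6.74 and 6.42 TPM, and Pzp, the related gene, at 24.73 and 27.77 TPM, 4.00 ± 0.464 times A2m. The related Mug1 was at 0.01 and 0.04 TPM and Mug2 had no reads in either library.

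Both enzymes of the vitamin K cycle were present. Ggcx, the carboxylase that vitamin K-dependent factors need, stood at 18.96 and 18.94 TPM. Vkorc1, the reductase that recycles vitamin K and the target of warfarin, stood at 70.14 and 65.34 TPM, or 3.57 ± 0.176 times Ggcx. Vkorc1l1, its relative, stood at 35.14 and 36.49 TPM. A readthrough gene on the same strand, Gm21974, shares 41.0% of the 100-base words of Vkorc1 and was given no reads. The vitamin K-dependent proteins themselves ranged from F2 at the top through F10, Proc, Pros1, Proz and F7 to F9, under 1 TPM.

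**Figure D3:**
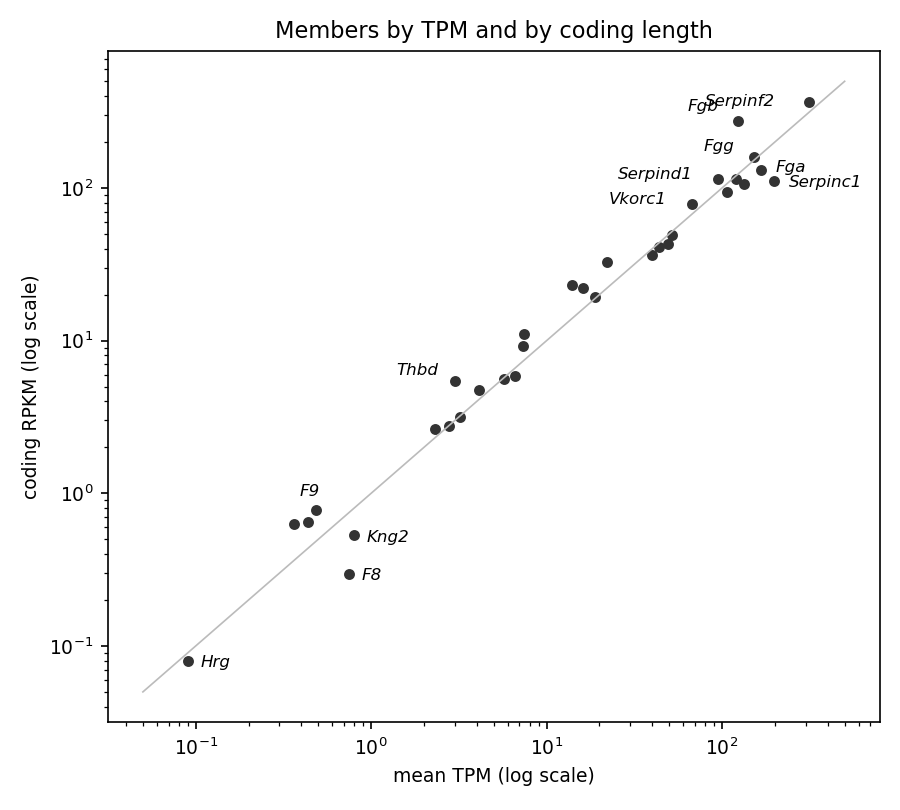
Mean TPM against coding RPKM for the 33 genes, both on log axes; the line marks equal values. Fgb lies farthest above the line among the high genes and Serpinc1 below it, while Serpinf2 is highest on both scales and Hrg lowest.

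Ordered by mean TPM, the 33 genes form 32 neighbouring pairs, and the values of the libraries overlapped in 7 of them: Fgb with Plg, F10 with F12, F13a1 with Plat, Plat with A2m, F13b with Thbd, Thbd with F11, and Kng2 with F8. In the other 25 pairs the values did not overlap. The order among the highest genes changed with the scale. From TPM to coding RPKM, Serpinc1 went from place 2 to 7 and Fgb from 6 to 2. Serpind1 went from 9 to 5 and Kng1 from 5 to 8. Both scales kept the genes from Vkorc1 to Tfpi in their places. They also kept the lowest 6 genes lowest as a set, although Kng2 went from place 28 to 31 and F8 from 29 to 32.

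Of the 33 genes, 16 had 1 transcript model and 17 had 2 or more. Among the 15 of these at 1 TPM or more, the leading model was the same in both libraries for all 15. It held a median of 77.0% of the gene's TPM, at least 90% in 7 genes and under 60% in 4. Fga gave 63.9 ± 0.184% of its TPM to the 557-codon Fga-201 and 36.1 ± 0.184% to Fga-202, which has 789 codons and encodes the extended alpha chain. Fgg-201, with 436 codons, held 77.0 ± 1.22% and the 443-codon Fgg-202 held 23.0 ± 1.22%. Kng1 is known to yield a long, high-molecular-weight kininogen and shorter forms. The 661-codon Kng1-201 held 14.1% of its TPM, the 480-codon Kng1-203 held 30.0 ± 1.24% and the 432-codon Kng1-202 held 55.8 ± 0.108%.

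In 2 high genes the leading models were shorter than the full protein. Serpinc1-205, with 1044 bases and 286 codons, held 49.8 ± 0.0834% of the TPM, and Serpinc1-204, a 742-base model annotated for nonsense-mediated decay, held 47.3 ± 0.213%. The 465-codon Serpinc1-201, at 4970 bases, held 2.62 ± 0.123% of the TPM but 14.0% of the reads. Part of that gene's sequence also lies in Zbtb37 on the opposite strand, with 32.2% of the 100-base words of Serpinc1 shared, and the labels do not state strandedness. Zbtb37 was given 245 and 237 reads, against 5741 and 5192 for Serpinc1. Plg likewise shares 8.94% of its words with Slc22a3 on the opposite strand, which was given 236 and 192 reads. In F10, the 319-codon F10-205 held 66.4 ± 2.61% and the longer F10-202 (481 codons) and F10-201 (493 codons) held 22.4 ± 1.64% and 7.89 ± 0.402%. F10-204 held 6.58% in replicate 1 and none in replicate 2, but the deposited intervals of its TPM overlapped (1.02 to 8.23 and 1.03e-05 to 4.16). Estimated shares differed between the libraries in 3 other genes. Serpinf2-201 went from 79.8% to 70.4% and Tfpi-201 from 49.7% to 41.0%. In Serpind1 the leading model, absent from GENCODE M21 by its identifier, went from 59.2% to 53.0%. The deposited TPM intervals of these models overlapped between the libraries. They were 231 to 286 and 193 to 238 for Serpinf2-201, and 8.07 to 13.2 and 6.14 to 10.7 for Tfpi-201. For the Serpind1 model they were 51.4 to 61.2 and 42.6 to 54.1. A change in model use was not tested. The Serpinf2 models involved encode proteins of equal length (491 codons).

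**Figure D4:**
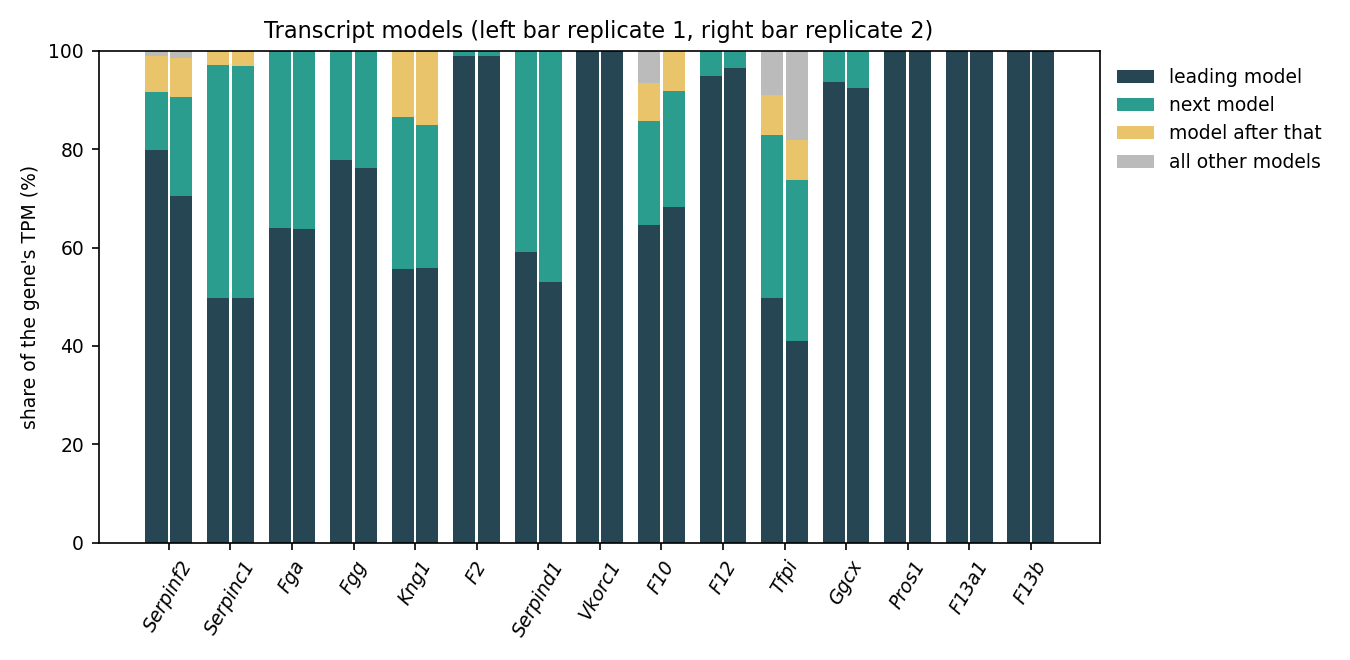
Share of each gene's TPM (percent) in its leading, next, following and other transcript models, for the 15 genes at 1 TPM or more with several models; the left bar of each pair is replicate 1 and the right bar replicate 2. All estimated reads of Vkorc1, Pros1, F13a1 and F13b went to 1 model each, and Serpinc1 is split between 2 models at 49.8% and 47.3%. The deposited intervals of F13a1-202, given no reads, still reached 3.51 and 2.05 TPM.

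A further list of 27 genes, also chosen by name, held receptors, cofactors, inhibitors and relatives of pathway genes outside the 34. Of these, 22 were at 1 TPM or more in both libraries, beside 54.5% of protein-coding genes. Their median was 19.8 TPM. The highest was Serpinf1, a secreted serpin listed only as a relative of Serpinf2, at 146.56 and 133.30 TPM. Next were Anxa2 and S100a10, the 2 parts of a plasminogen receptor, at 85.30 and 80.49 TPM and at 76.43 and 79.01 TPM. F2r, the thrombin receptor PAR1, followed at 73.92 and 73.52 TPM. Lman1 and Mcfd2 encode the cargo receptor that carries factors V and VIII out of the endoplasmic reticulum. They stood at 71.47 and 70.66 TPM and at 48.90 and 45.70 TPM. By RNA level both were well above F5 and F8, the genes of that cargo. Procr, the endothelial receptor of protein C, was at 1.31 and 1.05 TPM. Serpina10, the inhibitor that protein Z serves, was at 22.91 and 20.72 TPM, above Proz. Vwf, the carrier of factor VIII, was at 18.74 and 16.60 TPM.

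Between the pools the levels of most of these genes were close, as were those of most genes. Mean expected counts reached 100 for 11829 genes, 26 of them in the set. A difference of 25% or more between the pools was seen in 0 of the 26, beside 5.77% of all such genes. Within 10% were 20 of the 26, beside 71.7% of all. The median log2 ratio of replicate 1 to replicate 2 was 0.04, against 0.01 over all such genes, and 19 of the 26 were higher in replicate 1, beside 52.6% of all. Centring on the spike-ins shifted genes in general toward replicate 1, with a median log2 ratio of 0.12 over all such genes and 0.16 over the 26. With 1 pool at each value there is no test of a difference, and the 95% intervals below cover counting error only. They are narrow where reads are many, and so left out a fold of 1 even for Fgb, at 0.975-fold (0.952 to 0.998, replicate 1 over replicate 2). The 3 genes that were higher in replicate 2 by the most were Plat at 1.23-fold (1.09 to 1.39), Thbd at 1.18-fold (1.01 to 1.38) and F5 at 1.13-fold (1.05 to 1.23). F7 was higher in replicate 1 at 1.19-fold (0.985 to 1.45). Marker sums were also set as replicate 1 over replicate 2, with the markers higher in replicate 1 among those reaching 100 mean counts. Endothelial markers gave 1.09 (6 of 10), and megakaryocyte and platelet markers 1.13 (9 of 10). Mesenchymal markers gave 0.970 (3 of 9) and granulocyte markers 0.867 (1 of 8). Hepatoblast markers gave 1.03 (6 of 11) and macrophage markers 1.01 (5 of 9). Erythroid markers gave 0.979 (2 of 6) and mesothelial markers 1.08 (2 of 4). Their part in these ratios was not tested. F8, with fewer counts, was 1.81-fold higher in replicate 1 by TPM (1.28 to 2.58). Its reads were divided by an effective length of 2976 bases in replicate 1 and 3599 bases in replicate 2. On read counts scaled by TMM its log2 ratio was 0.57, against 0.75 by TPM.

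**Figure D5:**
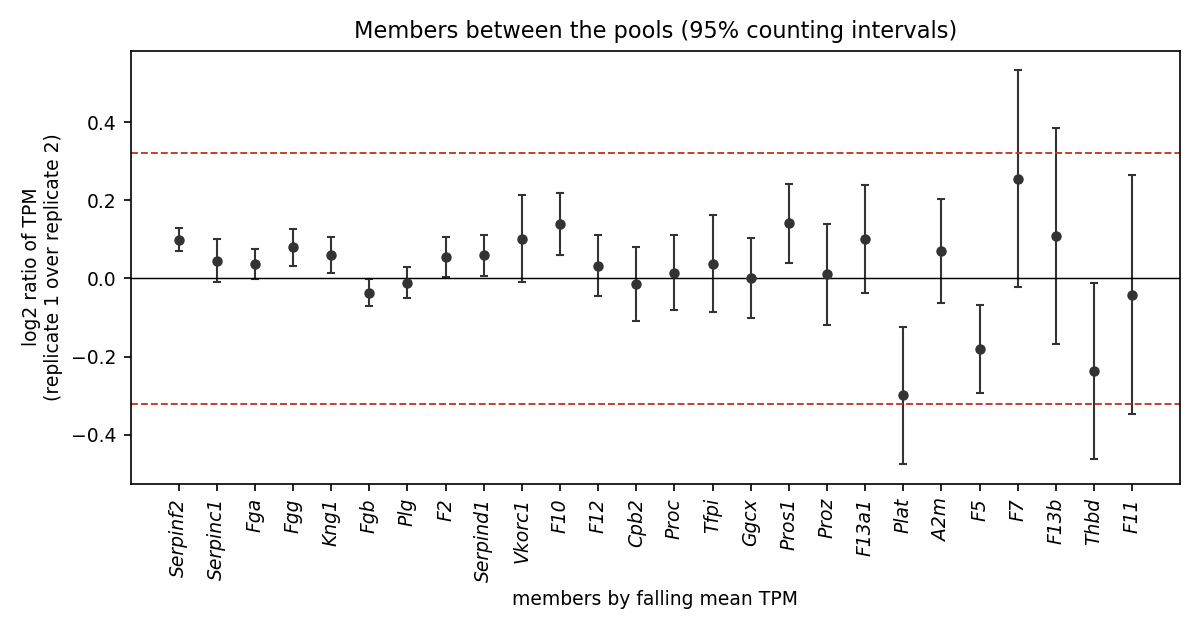
log2 ratio of TPM, replicate 1 over replicate 2, for the 26 genes that reached a mean of 100 expected counts, ordered by falling mean TPM; bars are exact 95% counting intervals and dashed lines mark a difference of 25%. No point lies beyond the lines, and Plat at 1.23-fold toward replicate 2 is nearest to them.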

How the data were processed

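Liver RNA from both libraries was quantified by the authors on mm10 with GENCODE M4, per the file headers and texts deposited with them. Which aligner and quantifier ran is not given in the sources used here. Deposited expected counts are estimated, unnormalized reads per gene or transcript. The deposited TPM and FPKM values are scaled by effective length (length minus 99) and depth. The posterior TPM estimates (unit: signal) and the percent of each gene's TPM per transcript are also the authors' columns, and shares were computed anew from transcript TPM. Depth was 37.6 M and 34.7 M expected counts, and 3 reads of Fgb correspond to 0.0257 and 0.0277 TPM.

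Gene names, coordinates (1-based), transcript types and coding lengths came from GENCODE M21 on the same assembly. Genes, lists and rules were chosen with earlier results of these data known. All 34 genes are accounted for, those at 1 TPM or more with both values. Of other lists, up to 4 of the highest genes are named, and any on which a statement on one of the 34 turns. Errors are SDs over 2 libraries. Ratios between pools used log2(TPM + 0.1), which understates the change of low genes, and folds with exact Clopper-Pearson 95% intervals. Reads copied by PCR carry no molecular identifiers and are not independent molecules, so intervals and floors cover counting error only. With 1 group no p-value was computed. The ratio rule was tested on simulated data. Expected counts were rounded for edgeR 4.0.16 (TMM) and DESeq2 1.42.0 (size factors), used as alternative scalings with Python 3.11.15 and R 4.3.3. Other alternatives were the TPM level, pseudocount, count minimum, fold, spike-in centring, transcript length and leaving out a library. Reads per coding kb were added after seeing the data.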

Additional observations from a re-analysis of the deposited data

How the results depend on the processing

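The count of 27 genes at 1 TPM or more, the summary levels and the ratio between the pools kept their direction under the alternatives tried. The median of the mean levels, 16.2 TPM, was 23.6 TPM with spike-ins and globins removed from the total and 39.7 TPM over the genes at 1 TPM or more alone. Centred on the spike-ins, the median log2 ratio between the pools was 0.16 (all genes 0.12). There 1 gene, F7, was 25% or more apart (log2 ratio 0.36), beside 8.54% of genes. With a count minimum of 10, 1 gene, F8, was that far apart, beside 16.8% of genes. The ratio of Fga to Fgg was 0.997 over the longest model and 0.832 over the coding length. That of Fgb to Fgg was 0.855 over the longest model, below 1 as by TPM, and 1.72 over the coding length. The median share of the leading transcript model was 95.6% among protein-coding models alone, and 76.2% to 79.8% when either library was left out. Leaving out a library gives no ratio between the pools. Of the 26 single-gene ratios, 26 moved by less than the spread with a pseudocount of 1, with TMM and with DESeq2 size factors, and 17 moved by more when centred on the spike-ins, and 4 of the 26 changed sign there (Cpb2, F11, Fgb and Plg). Counts limit F3, F9, Plau, Kng2 and Hrg most, at 5 to 42.0 reads in replicate 1. No paired analysis was possible because the series has 1 group.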
